A study of Mus musculus with 12 samples.

Results

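The 41 genes described here belong to the interferon response and to antigen presentation by major histocompatibility complex (MHC) class I. They were the rows of the 12 count tables whose gene identifier, read without its version, maps in the GENCODE mouse annotation to a list of 41 symbols, out of 52550 rows in each table. By role the list held 5 transcription factors, 3 sensors of RNA, 15 interferon-induced effectors, 3 interferon-induced transmembrane (Ifitm) proteins, 6 interferon-induced GTPases and 9 genes of the MHC class I pathway. RNA was sequenced from mouse embryonic stem (ES) cells in 6 groups of 2 libraries. Cells labelled without a knockout (unmodified cells) grew either in serum with LIF, a cytokine that keeps ES cells undifferentiated, or in 2iL, a serum-free medium with LIF and inhibitors of the kinases MEK and GSK3. Cells labelled GSK3 knockout were grown in serum with LIF, and the labels name neither the alleles nor how many clones were used. Each of these 3 settings received 100 nM JQ1, which displaces BET bromodomain proteins from acetylated histones, or the solvent DMSO, and was harvested after 60 h. Serum/LIF cells came from cultures on a feeder layer of embryonic fibroblasts and were split onto gelatin beforehand, and 2iL cells were grown on gelatin. Medium and feeder history therefore cannot be told apart in the comparison of 2iL with serum/LIF.

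As background, type I and type II interferons bind receptors that activate JAK kinases, and these phosphorylate transcription factors that move to the nucleus. A complex that includes STAT2 and IRF9 binds the interferon-stimulated response element (ISRE), type II interferon acts mainly through the gamma-activated site (GAS), and the genes behind these elements restrict viruses and other intracellular pathogens. MHC class I molecules show peptides, cut by the immunoproteasome and carried into the endoplasmic reticulum by the TAP transporter, to cytotoxic T cells. ES cells are known for making little interferon, for responding weakly to it and for showing little MHC class I.

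The libraries held between 17869865 and 48723436 expected counts each. The labels do not say whether the 2 libraries of a group came from separate cultures, so every p rests on the variation between these libraries alone, and that variation may be technical. Gsk3a ran from 13.6 to 19.9 TPM (a level scaled to depth and gene length) in the 4 knockout libraries against 35.6 to 82.4 TPM in the 8 unmodified libraries. Gsk3b ran from 7.51 to 10.4 TPM in the knockout and from 12.1 to 28.1 TPM otherwise. Markers of ES cells were present in every group, with summed levels of 6 genes between 1671 and 6822 TPM. Markers of fibroblasts were present as well in serum/LIF. The 16 fibroblast markers summed to 397 and 364 TPM in unmodified serum/LIF cells with DMSO, to 10.9 and 7.46 TPM in 2iL and to 167 and 217 TPM in the knockout, and 6 of the 16 were at 0 in both 2iL libraries with DMSO.

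Binding elements of the interferon pathway were searched for in the promoters. Of the 41 genes, 35 matched an entry in a table of RefSeq promoters (GRCm38.p6), and the 250 bases before the start were searched on both strands for the ISRE core (GAAA and GAAA with any pair of bases between) and for the GAS TTCNNNGAA, whose matches can overlap. The ISRE core was found in 15 of the 35 (42.9%) and in 3.46% of the 27025 genes of the table. A GAS was found in 7 of the 35 (20.0%) and in 8.13% of all genes. All 6 GTPases held an ISRE core, as did 6 of 12 matched effectors, 1 of 7 genes of the MHC class I pathway, 1 of 3 Ifitm genes, 1 of 5 transcription factors and neither of 2 RNA sensors. A match of letters is a description of the window, not evidence of binding. Below are 110 bases from 7 promoters, 5′ to 3′ on the gene's strand, with every match of either motif in capitals. Gbp2b, Gbp7 and Igtp are shown as GTPases that were near 0 outside unmodified serum/LIF cells or were lost with JQ1 in the knockout. Isg15 and Oas1a are shown as effectors that moved in opposite directions between media, B2m as the one MHC class I gene with an ISRE core, and Irf1 as a gene with a GAS that fell with JQ1 in each setting.
Gbp2b: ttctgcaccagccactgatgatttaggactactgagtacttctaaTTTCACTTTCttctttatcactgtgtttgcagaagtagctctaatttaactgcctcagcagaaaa
Gbp7: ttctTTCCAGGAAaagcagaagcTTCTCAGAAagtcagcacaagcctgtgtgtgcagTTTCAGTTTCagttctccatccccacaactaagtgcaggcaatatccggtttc
Igtp: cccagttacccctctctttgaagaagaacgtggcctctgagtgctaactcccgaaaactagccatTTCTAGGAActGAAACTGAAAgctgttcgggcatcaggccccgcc
Isg15: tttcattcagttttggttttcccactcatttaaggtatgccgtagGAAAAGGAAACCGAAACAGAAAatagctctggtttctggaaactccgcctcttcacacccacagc
Oas1a: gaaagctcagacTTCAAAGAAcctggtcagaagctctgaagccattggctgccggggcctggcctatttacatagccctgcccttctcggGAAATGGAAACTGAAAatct
B2m: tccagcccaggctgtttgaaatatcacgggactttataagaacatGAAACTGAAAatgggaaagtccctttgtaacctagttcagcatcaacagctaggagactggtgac
Irf1: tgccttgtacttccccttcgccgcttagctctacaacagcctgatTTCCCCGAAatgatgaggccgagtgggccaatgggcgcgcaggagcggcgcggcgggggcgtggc
In GRCm38.p6 the windows lie, in that order, at chr3:142594665-142594774 (plus strand), chr3:142530226-142530335 (plus strand), chr11:58199446-58199555 (plus strand), chr4:156200832-156200941 (minus strand), chr5:120907526-120907635 (minus strand), chr2:122147503-122147612 (plus strand) and chr11:53769879-53769988 (plus strand).

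Levels within a gene are given as CPM, counts scaled to library size, first replicate then second, and levels between genes as TPM, which also corrects for length. A change is a log2 fold change ± its standard error, and a gene is said to have risen or fallen where its Benjamini-Hochberg adjusted p, over all 16987 genes tested, was under 0.05. Of the 41 genes 37 had enough counts to be tested. Ifit3, Rsad2, Usp18 and Irf7 did not, and their highest level in any library was 0.509 CPM, for Irf7. The count threshold corresponded to 0.49 CPM. Of the 37 genes tested, 9 reached it in both libraries only in unmodified serum/LIF cells (Nlrc5, Psmb8, Ifih1, Gbp2, Gbp2b, Gbp3, Gbp7, Ifit1 and Isg15). These 9 could hardly have entered the test without being highest there, so counts over the 20 genes that reached the threshold in all 6 groups are given beside those over the 37.

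Unmodified serum/LIF cells with DMSO held the highest mean level of 29 of the 41 genes. The most abundant there were Ifitm1 (532 and 635 TPM), Ifitm3 (482 and 451 TPM) and Ifitm2 (340 and 343 TPM), followed by B2m (129 and 92.7 TPM) and Tapbp (131 and 84.7 TPM). In 2iL with DMSO only Ifitm2, Ifitm1 and Ifitm3 exceeded 100 TPM, at means of 952, 428 and 294 TPM. In the knockout with DMSO only Ifitm2 (404 TPM) and Ifitm1 (119 TPM) did. In bulk RNA, fewer cells of a type that expresses a gene and less RNA per cell cannot be told apart.

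**Figure D1:**
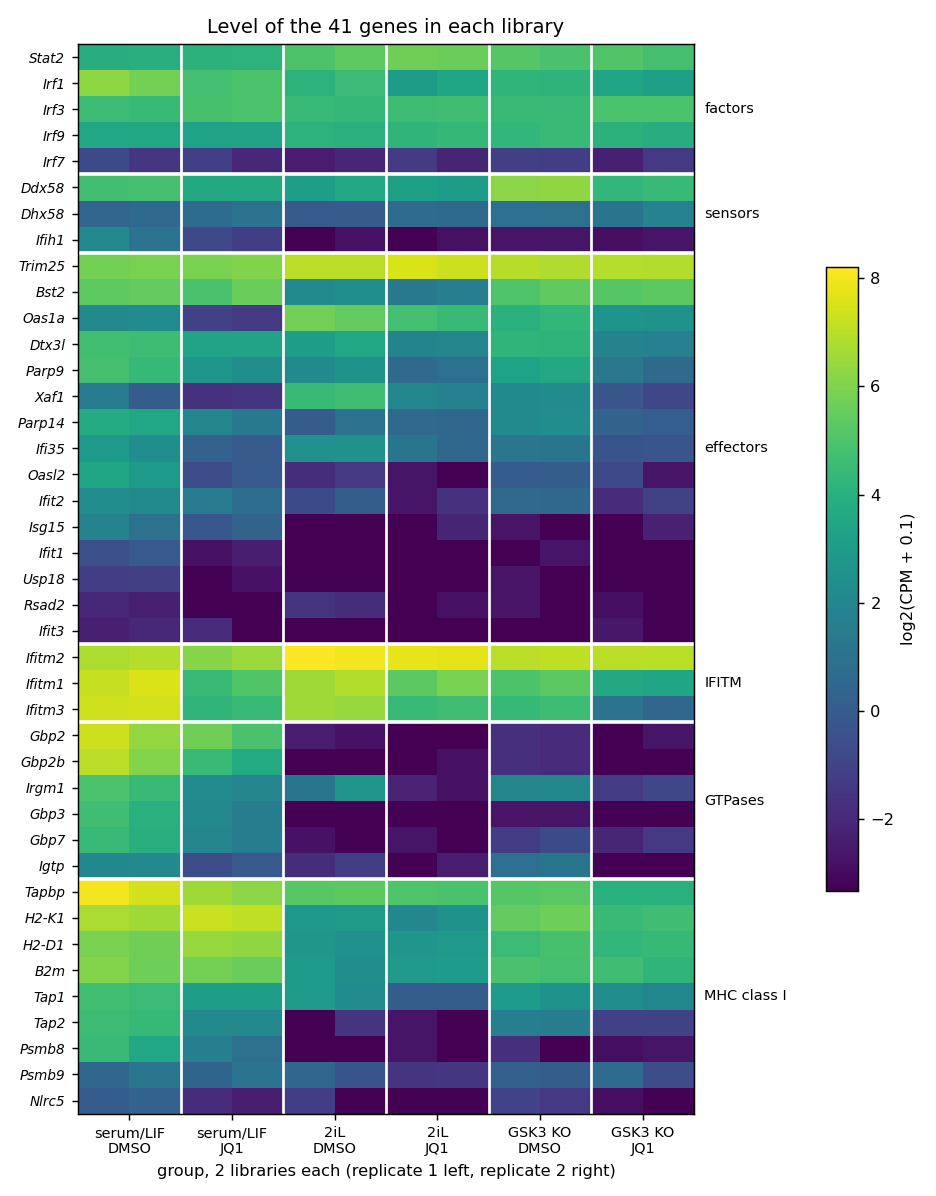
Level of each of the 41 genes (rows, grouped by role) in each of the 12 libraries (columns, replicate 1 left and replicate 2 right in each group), as log2(CPM + 0.1). The Gbp rows are bright in the 4 unmodified serum/LIF libraries and dark in the other 8, while Oas1a, Xaf1, Trim25, Stat2 and Ifitm2 are brighter in 2iL than in serum/LIF.

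Without JQ1, most of these genes were lower in 2iL and in the knockout than in unmodified serum/LIF cells. In 2iL 27 of the 37 genes tested fell and 6 rose, where 54.8% of all genes changed (26.5% fell and 28.3% rose). In the knockout 25 fell and 6 rose, where 40.0% of all genes changed (21.0% fell and 18.9% rose). Over the 20 genes above the threshold in every group, 13 fell and 4 rose in 2iL, and 12 fell and 4 rose in the knockout. The median of the 37 genes was -2.61 in 2iL, or -2.48 with the 5 genes at 0 in 2iL set at their bound, and -1.5 in the knockout, against 0.04 and 0.01 over all genes. Over the 20 genes the medians were smaller, at -1.38 in 2iL and -1.08 in the knockout. Both comparisons use the same unmodified serum/LIF libraries, so their values are given side by side and their overlap is no result. Markers of other cell states moved in the same comparisons. Of 7 markers of primitive endoderm, 6 rose and 1 fell in the knockout. Their sums were 37.1 and 27.3 TPM there, 22.02 and 12.8 TPM in unmodified serum/LIF cells and 2.74 and 1.75 TPM in 2iL. In unmodified serum/LIF cells 6 of the 7 were under 1 TPM in both libraries, so the sum there came mostly from 1 gene. All 7 were under 1 TPM in both 2iL libraries, and none was in the knockout. Of the 6 ES cell markers 5 rose in the knockout, and 5 rose and 1 fell in 2iL. Their part in the levels of the interferon genes was not tested.

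With JQ1, most genes that changed were lower. In unmodified serum/LIF cells 25 of 37 fell and 3 rose, where 21.3% of all genes changed (12.8% fell and 8.54% rose). Over all genes that share was smaller with 1 library left out, down to 10.9% without serum/LIF DMSO replicate 2. In 2iL 15 fell and 2 rose, where 28.5% of all genes changed (17.3% fell and 11.2% rose). Without JQ1 replicate 1 of 2iL the number that changed in 2iL was 10, in place of 17, and the share of all genes was 15.0%. That share was lowest, at 14.2%, without JQ1 replicate 2 of 2iL. In the knockout 19 fell and 1 rose, where 34.1% of all genes changed (19.5% fell and 14.6% rose), a share that was 17.9% without DMSO replicate 1 of the knockout. Of the 25 that fell in serum/LIF, Nlrc5, Ifih1 and Ifit1 reached the count threshold in both libraries only in that setting with DMSO. These 3 could hardly have been tested without being lower with JQ1 there. Over the 20 genes above the threshold in every group, 11 fell and 3 rose in serum/LIF, 10 fell and 2 rose in 2iL, and 12 fell and 1 rose in the knockout. The medians of the 37 genes were -1.58, -0.54 and -1.58, against -0.02, -0.06 and -0.06 over all genes. Over the 20 genes they were -0.82, -0.32 and -0.76. Leaving out genes under the count floor in both groups and setting genes at 0 at their bound gave -0.90 over 28 genes in 2iL and -1.39 over 32 in the knockout.

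The 3 JQ1 comparisons share no library. Dtx3l, Ifi35, Ifitm1, Ifitm3, Irf1, Irgm1, Oas1a, Parp9, Tap1 and Xaf1 fell in all 3, which is 10 of 37 genes, against 822 of 16987 (4.84%) over all genes. All of them but Irgm1, Oas1a and Xaf1 are among the 20 genes above the threshold in every group, which gives 7 of 20. No gene of the list rose in all 3. Another 9 fell in 2 settings, 11 in 1 and 7 in none. Of the 10, Irf1 and Tap1 lost the call in the knockout when 1 library was left out, as given under each gene below, and the other 8 kept it in each setting with any 1 library left out.

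**Figure D2:**
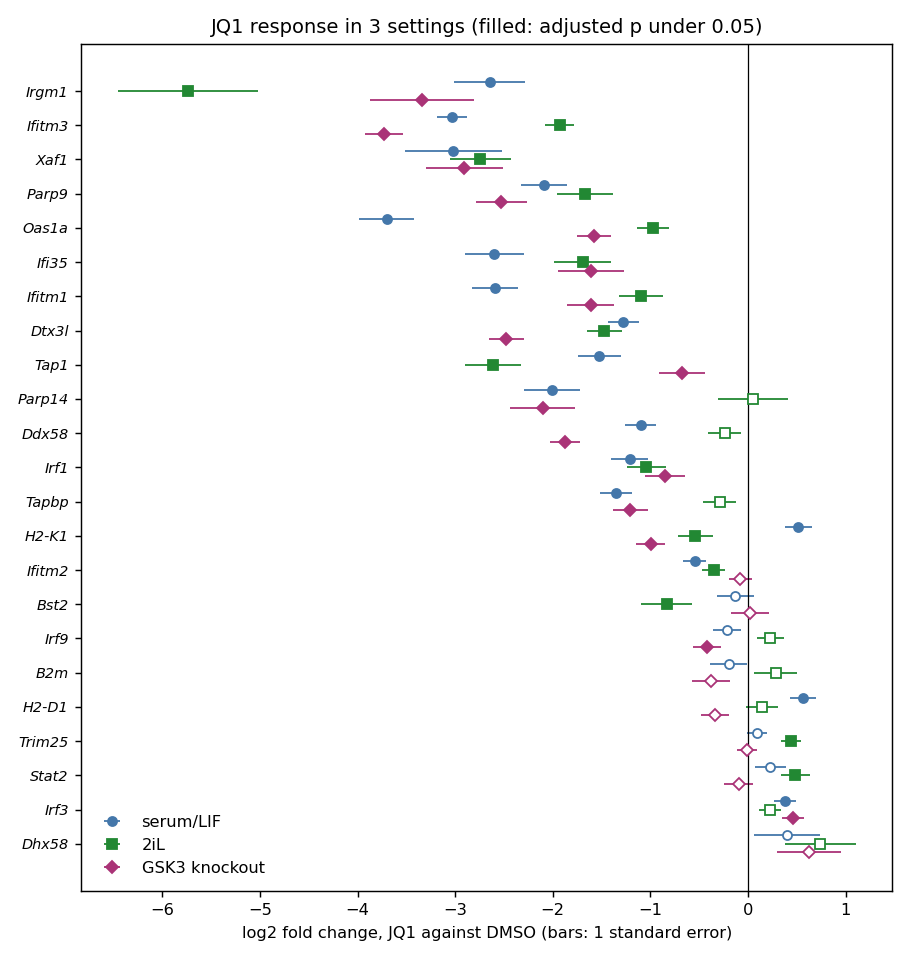
Log2 fold change with JQ1 against DMSO (x axis, bars of 1 standard error) in unmodified serum/LIF, unmodified 2iL and GSK3 knockout cells, for the 20 genes above the count threshold in all 6 groups and Irgm1, Oas1a and Xaf1, which also fell in all 3 settings; filled symbols passed at an adjusted p under 0.05. H2-K1 lies to the right of 0 in serum/LIF (0.52) and to the left in 2iL (-0.54) and in the knockout (-1.0).

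The Ifitm proteins sit in the plasma and endosomal membranes and block the fusion of many enveloped viruses. Ifitm3, the member best known for restricting influenza virus, was at 167 and 170 CPM in unmodified serum/LIF cells with DMSO and at 18.6 and 22.8 CPM with JQ1. It was at 95.5 and 86.4 CPM in 2iL and at 22.7 and 25.01 CPM there with JQ1. In the knockout it was at 20.7 and 24.4 CPM, and at 1.99 and 1.28 CPM with JQ1. In each setting both JQ1 libraries lay below both DMSO libraries, and the knockout with DMSO lay near the unmodified cells with JQ1. Ifitm3 fell with JQ1 by 3.03 ± 0.15 on the log2 scale in serum/LIF (adjusted p = 7.3e-07), by 1.93 ± 0.15 in 2iL (adjusted p = 4.9e-06) and by 3.73 ± 0.19 in the knockout (adjusted p = 2.5e-07). Without JQ1 it was lower in 2iL (-0.89 ± 0.14) and in the knockout (-2.90 ± 0.15).

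Ifitm1, expressed in ES cells and early germ cells, was at 145 and 192 CPM in serum/LIF with DMSO, at 95.4 and 117 CPM in 2iL and at 32.1 and 39.6 CPM in the knockout. Under JQ1 it was at 22.2 and 33.8 CPM, at 39.6 and 59.5 CPM, and at 12.2 and 11.3 CPM in the same order. JQ1 and DMSO libraries did not overlap in any setting. The changes with JQ1 were -2.59 ± 0.23 in serum/LIF, -1.10 ± 0.22 in 2iL and -1.61 ± 0.24 in the knockout, all 3 below an adjusted p of 0.05. Ifitm1 was lower in the knockout (-2.23 ± 0.23). Its difference in 2iL (-0.66 ± 0.22, adjusted p = 0.020) lost its call without serum/LIF DMSO replicate 2 (-0.45 with adjusted p = 0.161) or 2iL DMSO replicate 1 (-0.57 with adjusted p = 0.0969). Ifitm2 ran the other way between media, at 111 and 122 CPM in serum/LIF and 296 and 257 CPM in 2iL with DMSO, a rise of 1.25 ± 0.12. It was at 130 and 140 CPM in the knockout, which did not pass. With JQ1 Ifitm2 was at 70.2 and 88.9 CPM in serum/LIF, a fall of 0.55 ± 0.12 on the log2 scale that was lost on dropping DMSO replicate 2 (-0.48 with adjusted p = 0.0575) or JQ1 replicate 1 (-0.38 with adjusted p = 0.0588). In 2iL with JQ1 it was at 217 and 216 CPM (-0.35 ± 0.12), a call lost on dropping DMSO replicate 1 (-0.24 with adjusted p = 0.259), JQ1 replicate 1 (-0.34 with adjusted p = 0.168) or JQ1 replicate 2 (-0.34 with adjusted p = 0.164). In the knockout it was at 128 and 128 CPM and did not pass. The exons of Ifitm2 share 268 bases with Gm45717 on the same strand, so reads there could be split between them.

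**Figure D3:**
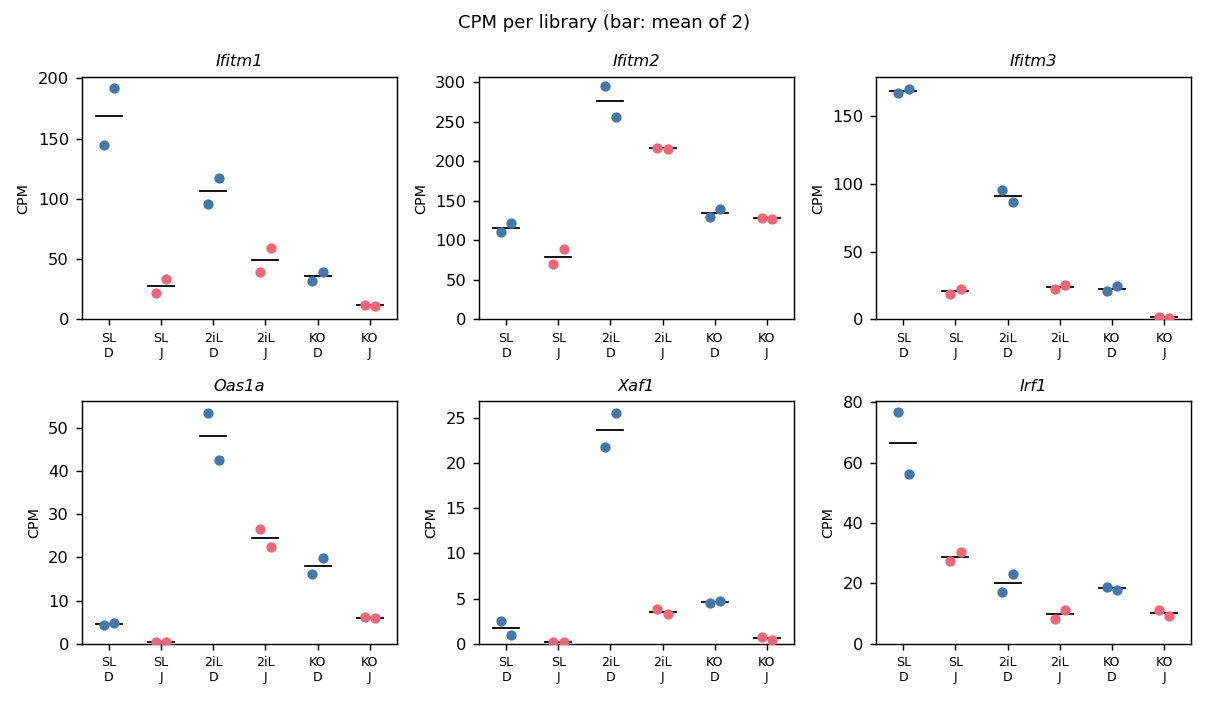
CPM in each library (points; bar, mean of 2) for the 3 Ifitm genes, Oas1a, Xaf1 and Irf1 in unmodified serum/LIF (SL), 2iL and GSK3 knockout (KO) cells with DMSO (D, blue) or JQ1 (J, red). Ifitm1 and Ifitm3 fall with JQ1 in all 3 settings, and Oas1a and Xaf1 are highest in 2iL with DMSO.

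The guanylate-binding proteins (Gbp) and the immunity-related GTPases (Igtp, Irgm1) attack the vacuoles in which intracellular bacteria and parasites live. All 6 were lower in 2iL and in the knockout than in unmodified serum/LIF cells, where 26.5% and 21.0% of all genes were lower. Gbp2, Gbp2b, Gbp3 and Gbp7 reached the count threshold in both libraries only in unmodified serum/LIF cells. These could hardly have been tested without being lower elsewhere. All 6 fell with JQ1 in serum/LIF, where 12.8% of all genes fell. Gbp2 was at 163 and 80.3 CPM in serum/LIF with DMSO and at 51.5 and 29.96 CPM with JQ1, a fall of 1.58 ± 0.30 on the log2 scale (adjusted p = 0.0037). Without DMSO replicate 1, the higher of the 2 libraries, the fall was 0.97, and it still passed. Outside unmodified serum/LIF cells Gbp2 was nearly absent, with 3 counts in the 2iL DMSO libraries and 9554 in those of serum/LIF, a ratio of 2018 (95% exact interval 690 to 9786, counting error only). In the knockout with DMSO it was at 0.203 and 0.168 CPM.

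Gbp2b was at 130 and 66.5 CPM in serum/LIF with DMSO and at 22.5 and 13.1 CPM with JQ1 (-2.46 ± 0.31). It had no counts in 2iL with DMSO, at least 711-fold lower by a floor of 3 counts per library, and was at 0.203 and 0.168 CPM in the knockout. Gbp3 was at 25.1 and 16.0 CPM with DMSO and 4.17 and 2.86 CPM with JQ1 in serum/LIF (-2.55 ± 0.30), had no counts in 2iL with DMSO (at least 149-fold lower), and had 2 counts in the knockout. Gbp7 was at 21.4 and 15.4 CPM with DMSO and 3.74 and 2.76 CPM with JQ1 in serum/LIF (-2.50 ± 0.30), and at 0.305 and 0.503 CPM in the knockout (-5.51 ± 0.40). The 4 Gbp genes shared 1 pattern, well above 10 CPM in serum/LIF with DMSO, lower with JQ1 there, and below 0.6 CPM in every library of the other 4 groups. The 4 lie in 1 cluster on chromosome 3 (GRCm38, from 142530342 at Gbp7 to 142638008 at Gbp2). Members of this family are close in sequence, so how reads were shared among them is uncertain, and Gbp7 shares 637 exon bases with Gm43802 on the same strand.

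Irgm1, which regulates the other immunity-related GTPases, remained measurable in 2iL and the knockout with DMSO. It was at 31.1 and 21.6 CPM in serum/LIF, at 2.11 and 6.31 CPM in 2iL and at 3.66 and 3.80 CPM in the knockout. With JQ1 it was at 4.69 and 3.73 CPM in serum/LIF (-2.65 ± 0.37) and at 0.309 and 0.446 CPM in the knockout (-3.34 ± 0.54). In 2iL it went from 183 counts with DMSO to 3 with JQ1, a ratio of 57.1 (95% exact interval 19.2 to 280). JQ1 and DMSO libraries did not overlap in any of the 3 settings. Igtp, another of these GTPases, was at 4.05 and 4.20 CPM in serum/LIF with DMSO and 0.565 and 0.823 CPM with JQ1 (-2.57 ± 0.42). In the knockout it went from 1.73 and 2.12 CPM to no counts, at least 14.3-fold lower. Its lower level in the knockout with DMSO (-1.10 ± 0.38, adjusted p = 0.037) lost its call with any 1 of the 4 libraries left out, with values from -1.25 to -0.95. Igtp shares 162 exon bases with Irgm2 on the same strand.

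The markers of fibroblasts and of contractile cells moved in part with the Gbp genes. In serum/LIF the summed fibroblast markers went from 397 and 364 TPM with DMSO to 180 and 161 TPM with JQ1. Of the 15 tested 14 fell there, where 12.8% of all genes did. In 2iL with JQ1 they were at 5.07 and 4.29 TPM, and 5 of 15 fell, where 17.3% of all genes did. In the knockout they were at 167 and 217 TPM with DMSO and at 124 and 87.2 TPM with JQ1. There 11 of 15 fell, where 19.5% of all genes did. The 4 contractile markers, led by Tagln and Acta2, were at 919 and 574 TPM in serum/LIF with DMSO, at 1349 and 768 TPM with JQ1, and at 0.34 and 1.00 TPM in 2iL with DMSO. In the knockout they were at 76.8 and 105 TPM with DMSO. Relative to serum/LIF with DMSO, the knockout with DMSO thus held 50.4% of the fibroblast markers, 12.2% of the contractile markers and 0.27% of the summed TPM of the 4 Gbp genes. In 2iL with DMSO these were 2.42%, 0.09% and 0.04%. In the knockout against serum/LIF, both with DMSO, 12 of 15 fibroblast markers fell and 1 rose. All 4 contractile markers fell there, where 21.0% of all genes did. In 2iL with DMSO all 15 fibroblast and all 4 contractile markers fell, where 26.5% of all genes did. In serum/LIF replicate 1 with DMSO was the higher library for the Gbp genes (153 and 74.7 TPM) and for the contractile and fibroblast markers. With JQ1 in serum/LIF the contractile markers were at 142% of their level with DMSO, and the Gbp genes at 29.6%. The part of these cells in the levels of the Gbp genes was not tested.

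**Figure D4:**
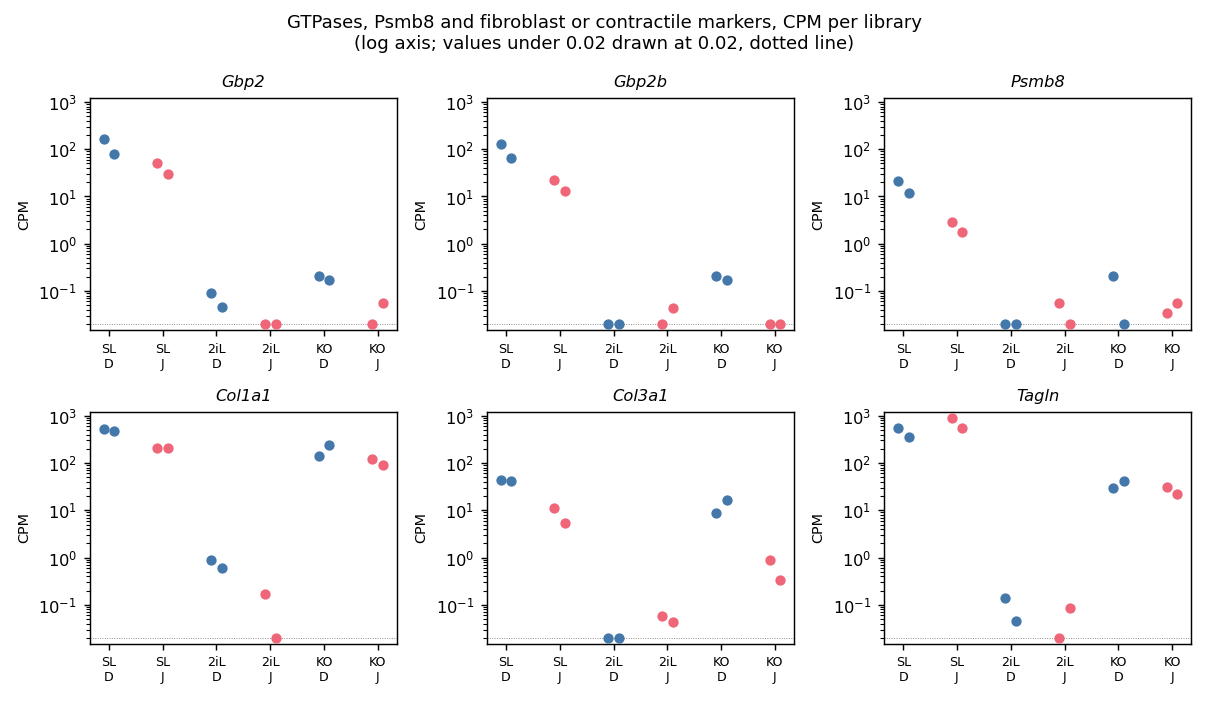
CPM in each library on a log axis (values below 0.02, including 0, drawn at 0.02) for Gbp2, Gbp2b and Psmb8 (top) and for the fibroblast or contractile markers Col1a1, Col3a1 and Tagln (bottom), in unmodified serum/LIF (SL), 2iL and GSK3 knockout (KO) cells with DMSO (D, blue) or JQ1 (J, red). The top row is near the floor in both 2iL and the knockout. In the bottom row Col1a1 and Tagln stay above 10 CPM in the knockout and drop below 1 CPM in 2iL. Among all markers tested, 12 of 15 fibroblast markers fell and 1 rose in the knockout with DMSO, and all 4 contractile markers fell.

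Genes of the MHC class I pathway were lower in 2iL and in the knockout, but they split under JQ1. In 2iL 8 of 9 were lower, where 26.5% of all genes were, and in the knockout 7 of 9, where 21.0% were. Psmb8 and Nlrc5 reached the threshold only in unmodified serum/LIF cells. The 5 genes above it in every group (B2m, H2-D1, H2-K1, Tap1 and Tapbp) were lower in both. The heavy chains H2-K1 and H2-D1 and their light chain beta-2-microglobulin (B2m) form the class I molecule. H2-K1 was at 107 and 95.4 CPM in serum/LIF with DMSO, at 6.93 and 7.28 CPM in 2iL (-3.83 ± 0.17) and at 43.1 and 49.9 CPM in the knockout (-1.12 ± 0.14). Under JQ1 it stood at 151 and 139 CPM in serum/LIF, at 3.93 and 5.74 CPM in 2iL and at 21.6 and 25.2 CPM in the knockout. Both JQ1 libraries lay above both DMSO libraries in serum/LIF and below them in 2iL and in the knockout. The changes were 0.52 ± 0.14 (adjusted p = 0.020), -0.54 ± 0.18 (adjusted p = 0.041) and -1.0 ± 0.15 (adjusted p = 0.00034). The rise in serum/LIF did not pass once DMSO replicate 2 (0.44 with adjusted p = 0.129) or JQ1 replicate 1 (0.46 with adjusted p = 0.0848) was left out. The fall in 2iL did not pass once DMSO replicate 1 (-0.57 with adjusted p = 0.104), DMSO replicate 2 (-0.49 with adjusted p = 0.124) or JQ1 replicate 1 (-0.29 with adjusted p = 0.319) was left out, and was -0.85 without JQ1 replicate 2.

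H2-D1 was at 58.9 and 52.4 CPM in serum/LIF with DMSO and 85.1 and 79.3 CPM with JQ1, a rise of 0.56 ± 0.14 (adjusted p = 0.012). The call was lost on dropping DMSO replicate 2 (0.48 with adjusted p = 0.0886) or JQ1 replicate 1 (0.52 with adjusted p = 0.0567). H2-D1 did not pass with JQ1 in 2iL, where it was at 6.84 and 5.67 CPM with DMSO and 6.32 and 7.46 CPM with JQ1. In the knockout it was at 22.8 and 28.4 CPM with DMSO and 19.7 and 20.8 CPM with JQ1, which did not pass either. H2-K1 and H2-D1 are near copies of each other and of other class I genes, so reads could be assigned to the wrong one. B2m was at 66.0 and 51.2 CPM in serum/LIF with DMSO, at 7.71 and 5.07 CPM in 2iL (-3.20 ± 0.21) and at 29.7 and 27.7 CPM in the knockout (-1.03 ± 0.19). Its JQ1 levels were 55.1 and 47.3 CPM in serum/LIF, 7.52 and 8.02 CPM in 2iL and 25.3 and 18.6 CPM in the knockout, and none of these passed.

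The genes that load peptide fell with JQ1 in serum/LIF. Tapbp (tapasin), which holds the class I molecule at the peptide transporter, was at 253 and 173 CPM with DMSO and 94.4 and 72.6 CPM with JQ1 in serum/LIF (-1.35 ± 0.17). It was at 35.7 and 37.9 CPM in the knockout and 15.9 and 16.0 CPM there with JQ1 (-1.21 ± 0.18), and at 36.8 and 39.6 CPM in 2iL and 32.7 and 29.8 CPM there with JQ1, which did not pass. Tap1, one subunit of the transporter, was at 25.9 and 22.8 CPM with DMSO and 8.60 and 8.37 CPM with JQ1 in serum/LIF (-1.52 ± 0.22). In 2iL it was at 7.11 and 4.65 CPM with DMSO and 0.968 and 0.949 CPM with JQ1 (-2.61 ± 0.29). Its fall in the knockout, from 8.08 and 5.87 CPM to 4.88 and 3.79 CPM (-0.68 ± 0.24, adjusted p = 0.043), did not pass once DMSO replicate 1 (-0.42 with adjusted p = 0.334), JQ1 replicate 1 (-0.88 with adjusted p = 0.0653) or JQ1 replicate 2 (-0.51 with adjusted p = 0.236) was left out. Tap2, the other subunit, was at 23.6 and 21.1 CPM with DMSO and 4.26 and 4.26 CPM with JQ1 in serum/LIF (-2.39 ± 0.29). In the knockout Tap2 went from 3.00 and 2.79 CPM to 0.378 and 0.390 CPM (-2.90 ± 0.42), and in 2iL with DMSO it was at 0 and 0.230 CPM. Against serum/LIF with DMSO, Tapbp was lower in 2iL (-2.48 ± 0.17) and in the knockout (-2.54 ± 0.17). Tap1 was lower as well, in 2iL (-2.05 ± 0.23) and in the knockout (-1.8 ± 0.22), and Tap2 was lower in the knockout (-2.95 ± 0.31).

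Psmb8 and Psmb9 are catalytic subunits of the immunoproteasome. Psmb8 was at 21.6 and 11.8 CPM with DMSO and 2.91 and 1.79 CPM with JQ1 in serum/LIF (-2.83 ± 0.41), and had no counts in 2iL with DMSO, at least 121-fold lower. In the knockout with DMSO it was at 0.203 and 0 CPM. Psmb9, which lies next to Tap1 in opposite orientation and shares 212 exon bases with it, was between 0.228 and 2.20 CPM in every library. Its call with JQ1 in 2iL (-2.02 ± 0.64, adjusted p = 0.032) was lost without DMSO replicate 1 (-1.47 with adjusted p = 0.216), JQ1 replicate 1 (-1.93 with adjusted p = 0.134) or JQ1 replicate 2 (-2.12 with adjusted p = 0.134). The counting is not stated to have used strand, so reads in the shared part cannot be told apart. Nlrc5, the transactivator of class I genes, was at 0.917 and 1.13 CPM in serum/LIF with DMSO and below 0.5 CPM in the other 10 libraries. It fell with JQ1 in serum/LIF (-2.83 ± 0.84, adjusted p = 0.033), a call lost with any 1 of the 4 libraries left out, with values from -3.31 to -2.49.

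**Figure D5:**
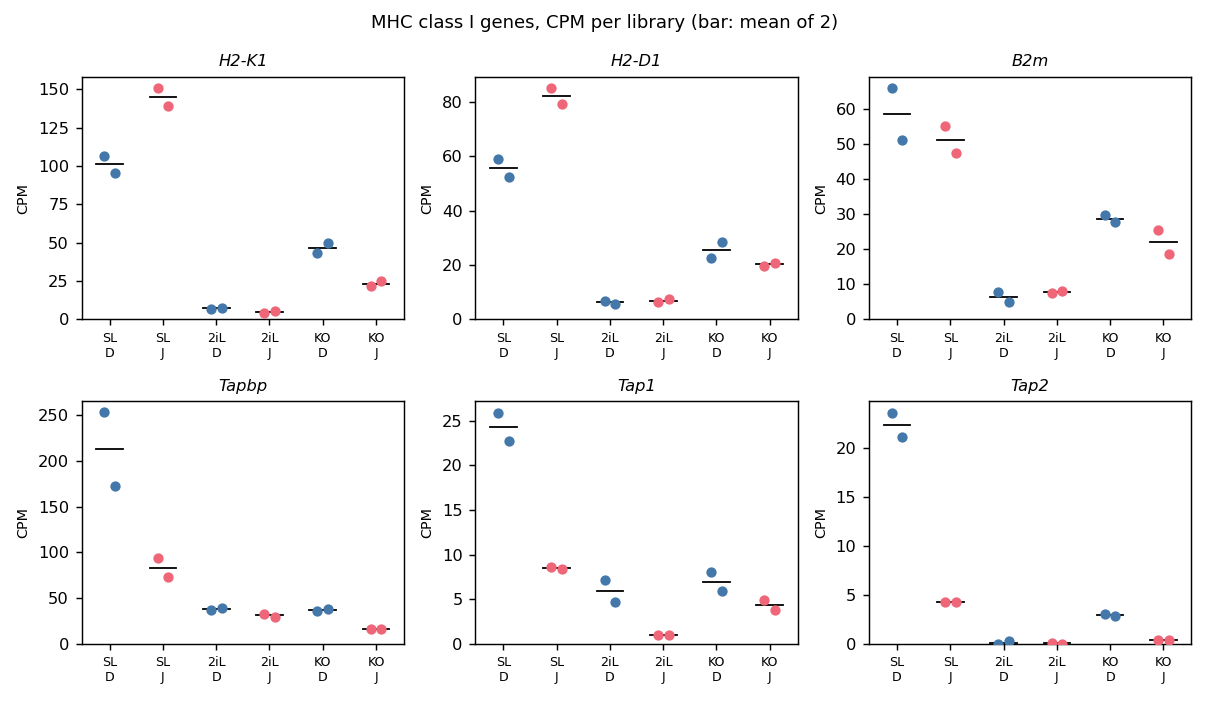
CPM in each library (points; bar, mean of 2) for 6 genes of the MHC class I pathway in unmodified serum/LIF (SL), 2iL and GSK3 knockout (KO) cells with DMSO (D, blue) or JQ1 (J, red). H2-K1 and H2-D1 are higher with JQ1 in serum/LIF, where Tapbp, Tap1 and Tap2 are lower, and H2-K1, H2-D1 and B2m are lowest in 2iL.

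The transcription factors moved in different directions. Irf1, an activator of class I and Gbp genes that is itself induced by interferon, was at 76.8 and 56.1 CPM in serum/LIF with DMSO and 27.4 and 30.3 CPM with JQ1 (-1.21 ± 0.19). In 2iL it was at 17.2 and 23.2 CPM with DMSO and 8.26 and 11.3 CPM with JQ1 (-1.04 ± 0.20). In the knockout it was at 18.9 and 17.8 CPM with DMSO and 11.1 and 9.19 CPM with JQ1 (-0.85 ± 0.20, adjusted p = 0.0071), and that call was lost on dropping JQ1 replicate 2 (-0.72 with adjusted p = 0.0696). JQ1 lay below DMSO in every library pair of each setting. Without JQ1, Irf1 was lower in 2iL (-1.72 ± 0.19) and in the knockout (-1.86 ± 0.20). The GAS in its promoter window is among the sequences shown above.

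Without JQ1, Stat2 and Irf9, which both belong to the complex that binds the ISRE, went against most of the list. Stat2 was at 14.2 and 15.3 CPM in serum/LIF, at 31.4 and 41 CPM in 2iL (1.30 ± 0.15) and at 35.9 and 29.9 CPM in the knockout (1.16 ± 0.15), all with DMSO. With JQ1 in 2iL Stat2 was at 52.1 and 49.5 CPM (0.49 ± 0.15), a call lost on dropping DMSO replicate 1 (0.31 with adjusted p = 0.213), JQ1 replicate 1 (0.47 with adjusted p = 0.122) or JQ1 replicate 2 (0.53 with adjusted p = 0.0864). Irf9 was at 11.69 and 12.03 CPM in serum/LIF and at 19.5 and 22.6 CPM in the knockout (0.83 ± 0.14). In 2iL Irf9 was at 17.3 and 16.1 CPM (0.49 ± 0.14), a call lost without serum/LIF DMSO replicate 1 (0.47 with adjusted p = 0.0564) or 2iL DMSO replicate 1 (0.40 with adjusted p = 0.0846). With JQ1 in the knockout it was at 16.9 and 14.4 CPM (-0.42 ± 0.14, adjusted p = 0.036), a call lost with any 1 of the 4 libraries left out, with values from -0.54 to -0.31. Stat2 did not pass with JQ1 in serum/LIF (0.23 ± 0.15) or in the knockout (-0.09 ± 0.15). Nor did Irf9 with JQ1 in serum/LIF (-0.21 ± 0.15) or in 2iL (0.23 ± 0.14). Irf9 shares 123 exon bases with Rnf31 on the same strand.

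Irf3, which is activated after translation downstream of the RNA sensors, was nearly level across media at 20.5 to 23.5 CPM in the 6 DMSO libraries. With JQ1 it was at 28.4 and 30.7 CPM in serum/LIF (0.38 ± 0.11, adjusted p = 0.033) and at 31.0 and 30.5 CPM in the knockout (0.46 ± 0.12, adjusted p = 0.0085). The rise in serum/LIF lost its call with any 1 of the 4 libraries left out, with values from 0.33 to 0.44. That in the knockout lost it without DMSO replicate 1 or JQ1 replicate 1 (0.46 in each, adjusted p = 0.0636 and adjusted p = 0.0582). Irf7, the factor that amplifies type I interferon and is itself induced by it, was between 0.0918 and 0.509 CPM in all 12 libraries and was not tested.

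Of the RNA sensors, Ddx58 (RIG-I), which detects short RNA with 5′ triphosphates, was high in the knockout. It was at 26.2 and 28.1 CPM in serum/LIF, at 8.35 and 11.9 CPM in 2iL (-1.42 ± 0.16) and at 73.1 and 79.1 CPM in the knockout (1.49 ± 0.15), all with DMSO. JQ1 libraries held 12.9 and 12.4 CPM in serum/LIF (-1.10 ± 0.15), at 9.17 and 8.02 CPM in 2iL, which did not pass, and at 19.9 and 21.7 CPM in the knockout (-1.87 ± 0.15). Ifih1 (MDA5), the sensor of long double-stranded RNA, was at 4.48 and 2.00 CPM in serum/LIF with DMSO and at 0.478 and 0.339 CPM with JQ1 (-2.99 ± 0.53). Without DMSO replicate 1 that change was -2.26 and no longer passed (adjusted p = 0.0549). Ifih1 was below 0.06 CPM in all 8 other libraries. Dhx58 (LGP2), a regulator of both, lay between 0.872 and 3.40 CPM and passed in none of the 7 comparisons.

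Among the effectors, Oas1a and Xaf1 were highest in 2iL. Oas1a makes the messenger that activates RNase L on double-stranded RNA. It was at 4.32 and 4.81 CPM in serum/LIF, at 53.4 and 42.6 CPM in 2iL (3.40 ± 0.18, adjusted p = 9.7e-09) and at 16.2 and 19.9 CPM in the knockout (1.99 ± 0.18, adjusted p = 2.7e-06), all with DMSO. With JQ1 it was at 0.391 and 0.290 CPM in serum/LIF (-3.70 ± 0.28), at 26.7 and 22.4 CPM in 2iL (-0.97 ± 0.16) and at 6.11 and 5.90 CPM in the knockout (-1.58 ± 0.17). JQ1 libraries lay below DMSO libraries in each setting, and the 3 settings did not overlap with one another under either treatment. Oas1a belongs to a family of near copies, so its share of reads is uncertain. Xaf1, which antagonises an inhibitor of apoptosis, was at 2.55 and 0.972 CPM in serum/LIF, 21.8 and 25.5 CPM in 2iL (3.64 ± 0.32) and 4.47 and 4.70 CPM in the knockout (1.27 ± 0.33). The last of these was 2.23 without serum/LIF DMSO replicate 1 and 0.84 without replicate 2. With JQ1 Xaf1 was at 0.217 and 0.242 CPM, at 3.82 and 3.28 CPM and at 0.721 and 0.446 CPM, changes of -3.02 ± 0.49, -2.74 ± 0.31 and -2.91 ± 0.39.

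Parp9 and Dtx3l form a complex of a macrodomain protein and a ubiquitin ligase that strengthens interferon signalling. Their genes lie on opposite strands of chromosome 16 and overlap at their 5′ ends, with 367 shared exon bases. Parp9 was at 28.3 and 21.1 CPM in serum/LIF with DMSO and 6.60 and 5.03 CPM with JQ1 (-2.08 ± 0.24). In 2iL it was at 4.36 and 5.76 CPM with DMSO and 1.42 and 1.73 CPM with JQ1 (-1.67 ± 0.28). In the knockout it was at 10.1 and 12.2 CPM with DMSO and 2.27 and 1.504 CPM with JQ1 (-2.53 ± 0.27). Dtx3l went from 26.3 and 24.7 to 10.5 and 10.6 CPM in serum/LIF (-1.27 ± 0.16), from 8.67 and 11.6 to 3.59 and 3.71 CPM in 2iL (-1.47 ± 0.18) and from 18.7 and 17.9 to 3.43 and 3.12 CPM in the knockout (-2.48 ± 0.18). Both genes therefore had JQ1 libraries below DMSO libraries throughout. Dtx3l was lower in the knockout with DMSO (-0.48 ± 0.16, adjusted p = 0.028), a call lost with any 1 of the 4 libraries left out, with values from -0.52 to -0.43. Parp14, from the same locus, fell with JQ1 in serum/LIF (13.7 and 11.5 to 3.82 and 2.42 CPM, -2.01 ± 0.29) and in the knockout (4.52 and 4.92 to 1.17 and 1.00 CPM, -2.10 ± 0.33). In 2iL it was at 0.918 and 1.84 CPM with DMSO and 1.48 and 1.38 CPM with JQ1, which did not pass. With DMSO, Parp9 was lower in 2iL (-2.29 ± 0.24) and in the knockout (-1.15 ± 0.23), and so was Parp14 (-3.19 ± 0.32 and -1.42 ± 0.28).

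Ifi35, an interferon-induced leucine zipper protein, fell with JQ1 in all 3 settings. It went from 7.17 and 4.91 to 1.13 and 0.871 CPM in serum/LIF (-2.60 ± 0.30), from 5.60 and 5.57 to 2.11 and 1.38 CPM in 2iL (-1.69 ± 0.29) and from 2.18 and 2.12 to 0.687 and 0.724 CPM in the knockout (-1.61 ± 0.34). Trim25, the ubiquitin ligase that activates RIG-I, was higher in 2iL and in the knockout, at 56.3 and 60.0 CPM in serum/LIF, 128 and 128 CPM in 2iL (1.14 ± 0.10) and 126 and 116 CPM in the knockout (1.06 ± 0.10). With JQ1 it was at 185 and 162 CPM in 2iL (0.44 ± 0.10, adjusted p = 0.0062), a call lost on dropping JQ1 replicate 1 (0.36 with adjusted p = 0.0719). Trim25 passed with JQ1 in neither serum/LIF setting. Bst2 (tetherin), which holds budding virus at the cell surface, was at 40.6 and 42.7 CPM in serum/LIF, 32.2 and 41.6 CPM in the knockout and 4.41 and 5.25 CPM in 2iL (-3.11 ± 0.22). Its fall with JQ1 in 2iL (to 2.39 and 2.98 CPM, -0.83 ± 0.26, adjusted p = 0.032) lost its call with any 1 of the 4 libraries left out, with values from -1.0 to -0.68.

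Isg15, Ifit1, Ifit2, Ifit3, Oasl2, Rsad2 and Usp18 are induced strongly by interferon in many cell types. Isg15, the ubiquitin-like modifier, was at 3.50 and 1.84 CPM in serum/LIF with DMSO and 0.782 and 1.16 CPM with JQ1. That change did not pass (-1.49 ± 0.58, adjusted p = 0.091). Isg15 had no counts in 2iL with DMSO (at least 19.4-fold lower) and 1 count in the knockout with DMSO. Ifit1, which binds viral RNA caps, was at 0.611 and 0.870 CPM in serum/LIF with DMSO and below 0.1 CPM in the other 10 libraries. It fell with JQ1 in serum/LIF from 47 counts to 3, a ratio of 9.97 (95% exact interval 3.21 to 50.1), and that call was lost with any 1 of the 4 libraries left out. Oasl2, an oligoadenylate synthetase-like protein, went from 10.9 and 7.78 to 0.565 and 0.871 CPM with JQ1 in serum/LIF (-3.71 ± 0.46) and was at 0.914 and 0.9501 CPM in the knockout with DMSO. Ifit2 was at 4.97 and 4.30 CPM in serum/LIF with DMSO and 2.61 and 1.65 CPM with JQ1, which did not pass (adjusted p = 0.054). In 2iL it fell with JQ1 from 0.505 and 0.967 to 0.0569 and 0.216 CPM (-2.30 ± 0.65, adjusted p = 0.019). That call was lost on dropping DMSO replicate 2 (-1.74) or JQ1 replicate 1 (-1.73). It fell with JQ1 in the knockout, from 1.47 and 1.34 to 0.172 and 0.390 CPM (-2.40 ± 0.54), a call lost on dropping JQ1 replicate 1 (-1.83 with adjusted p = 0.0657). Ifit3, Rsad2 and Usp18 never exceeded 0.4 CPM. Of 9 interferon genes examined as ligands, none had more than 2 counts in any library.

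The difference between JQ1 responses was tested for each gene. In 2iL against serum/LIF 5 of 37 genes had a higher value and 1 a lower one, where 4.16% of all genes passed (1.35% higher and 2.80% lower). In the knockout against unmodified cells 1 had a higher value and 4 a lower one, where 4.37% passed (1.25% higher and 3.12% lower). Over the 20 genes above the threshold in every group, 4 were higher and 1 lower in 2iL, and none higher and 3 lower in the knockout. Over all genes of the list that were tested, the 2iL count was smaller in most fits that left out 1 library. It was smallest without JQ1 replicate 2 of 2iL. The knockout count was also smaller in most such fits, and smallest without either JQ1 replicate of the knockout. Oas1a passed in both, its fall being smaller in 2iL (2.73 ± 0.34, adjusted p = 0.0015) and in the knockout (2.12 ± 0.36, adjusted p = 0.0074), and it kept both calls with any 1 library left out. H2-K1, which rose in serum/LIF, had a lower response in 2iL (-1.06 ± 0.23) and in the knockout (-1.51 ± 0.20, adjusted p = 0.0022). The call of H2-K1 in the knockout held with any 1 library left out, and that in 2iL was lost without serum/LIF DMSO replicate 2 (-0.97 with adjusted p = 0.0669) or 2iL JQ1 replicate 1 (-0.82 with adjusted p = 0.0937). Ifitm3 fell less in 2iL (1.10 ± 0.20, adjusted p = 0.0090), a call lost without 2iL JQ1 replicate 2 (1.03 with adjusted p = 0.0541). Both tests use the serum/LIF libraries and are not independent of each other.

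Other genes of the pathway were taken from a list of 85, of which 69 were tested. In order of the JQ1 comparisons, 26 fell and 5 rose in serum/LIF, 27 fell and 5 rose in 2iL, and 30 fell and 6 rose in the knockout, with medians of -0.44, -0.51 and -0.46. Over all genes 12.8%, 17.3% and 19.5% fell and 8.54%, 11.2% and 14.6% rose in these comparisons. Without JQ1 38 fell and 16 rose in 2iL, where 26.5% of all genes fell and 28.3% rose, and 34 fell and 8 rose in the knockout, where 21.0% fell and 18.9% rose. Of the 8 receptors and kinases, 1 fell and 1 rose with JQ1 in serum/LIF, namely Il10rb (-1.34 ± 0.37) and Jak1 (0.64 ± 0.15), a share near the 21.3% of all genes that changed. Among 9 genes of innate sensing that were tested, Mavs, the adaptor of the RNA sensors on mitochondria, was higher in the knockout (1.34 ± 0.16), and Ikbke, a kinase that activates IRF3, fell with JQ1 in serum/LIF (-1.54 ± 0.34), in 2iL (-2.07 ± 0.44) and in the knockout (-2.27 ± 0.42).

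Of 22 other interferon-induced genes tested, 12 fell and none rose with JQ1 in serum/LIF. In 2iL 10 fell and 1 rose, and in the knockout 8 fell and 1 rose. Over all genes 12.8%, 17.3% and 19.5% fell and 8.54%, 11.2% and 14.6% rose in these comparisons. In either direction 21.3%, 28.5% and 34.1% of all genes changed. The knockout count in either direction lies near its share. Rnf213, a large ubiquitin ligase with antimicrobial activity, was at 36.0 and 33.9 CPM in serum/LIF and 130 and 186 CPM in 2iL with DMSO. It fell with JQ1 by 1.67 ± 0.17, 0.60 ± 0.15 and 3.14 ± 0.21 on the log2 scale in serum/LIF, 2iL and the knockout. Zc3hav1 (ZAP), which binds viral RNA rich in CpG, rose with JQ1 in 2iL (0.57 ± 0.18) and in the knockout (0.81 ± 0.19). Of 18 other genes of antigen presentation tested, 9 fell and 2 rose with JQ1 in serum/LIF. In 2iL 7 fell and none rose, and in the knockout 14 fell and 1 rose. The same shares of all genes apply, with 12.8%, 17.3% and 19.5% that fell and 21.3%, 28.5% and 34.1% that changed in either direction. Psme1, a subunit of the proteasome activator PA28, fell with JQ1 in serum/LIF (-0.93 ± 0.13) and in 2iL (-0.64 ± 0.13). Calr and Pdia3, chaperones of the loading complex, fell with JQ1 in serum/LIF (-0.44 ± 0.12 and -0.43 ± 0.11) and in the knockout (-0.63 ± 0.12 and -0.33 ± 0.11).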

How the data were processed

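The 12 libraries were deposited as 1 table each. Per the submitters' processing notes, reads were aligned to mm10 with STAR 2.5.2 and quantified with RSEM, and the notes also name bcl2fastq and DESeq2 1.18.1. Per the file headers each table has a column of expected counts, left by the authors without depth scaling, and a column of TPM, which the authors scaled by depth and gene length. The annotation release and strand setting are not given in the sources used here. Gene names and coordinates come from GENCODE mouse release M21 (GRCm38), to which 52403 of 52550 identifiers matched without their version, and promoters from RefSeq (GRCm38.p6).

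The expected counts, rounded to whole numbers, entered edgeR 4.0.16 (R 4.3.3). filterByExpr set the low-count limit (minimum count 10, minimum total 15), TMM gave the scaling, and all 6 groups shared 1 quasi-likelihood model with 6 residual degrees of freedom. Calls are two-sided at a Benjamini-Hochberg adjusted p under 0.05. Standard errors are the absolute log2 fold change over the root of its F statistic. CPM use the TMM library sizes. Where a group had no counts of a gene, the bound uses 3 counts in each library, and bounds and intervals (exact, 95%) cover counting error only. The test was tested on simulated data. The 7 comparisons were JQ1 against DMSO in 3 settings, 2iL and knockout against serum/LIF with DMSO, and 2 tests of whether the JQ1 response differed, in 2iL or the knockout, from that of unmodified serum/LIF cells. Alternatives were RLE scaling, DESeq2 1.42.0, no filter, a stricter filter (1 CPM, 4 libraries), an added fold limit (log2 of 1), the compared libraries alone, a replicate block, and each library left out in turn.

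All 41 genes were eligible to be named. The genes, the pathway and marker lists and the motifs were chosen with earlier results of these data known. Of the other pathway genes, at most the 3 with the highest mean CPM among those that passed were named per list and comparison. The result of 1 pathway gene is not reported here.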

Additional observations from a re-analysis of the deposited data

Results flagged for a closer look

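The response to JQ1 differed between settings for these genes, by the test of the difference itself (edgeR's quasi-likelihood test, adjusted over all genes, 2 libraries in each group). In 2iL minus serum/LIF the log2 differences were 2.73 for Oas1a (adjusted p = 0.0015), 2.06 for Parp14 (adjusted p = 0.024), 1.49 for Ifitm1 (adjusted p = 0.018), 1.10 for Ifitm3 (adjusted p = 0.0090), 1.06 for Tapbp (adjusted p = 0.024) and -1.06 for H2-K1 (adjusted p = 0.021). Parp14 lost its call in 5 of the 8 fits that leave out 1 of these libraries, Tapbp in 5, Ifitm1 in 3, H2-K1 in 2 and Ifitm3 in 1. Oas1a kept its call in all 8.

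In the knockout minus unmodified cells the differences were 2.12 for Oas1a (adjusted p = 0.0074), -1.20 for Dtx3l (adjusted p = 0.015), -5.93 for Igtp (adjusted p = 0.029), -0.90 for H2-D1 (adjusted p = 0.024) and -1.51 for H2-K1 (adjusted p = 0.0022). Igtp had no counts in the knockout with JQ1, so its fitted value is no bound. Igtp lost its call in 6 of the 8 fits that leave out 1 library, H2-D1 in 5 and Dtx3l in 3, while Oas1a and H2-K1 kept theirs in all 8. The fibroblast and contractile markers differed in level between these settings with DMSO. By the test of the difference in JQ1 response, 1 of 15 fibroblast and 0 of 4 contractile markers passed in each comparison. Over all genes 4.16% passed in 2iL and 4.37% in the knockout. In 2iL with DMSO 13 of the 16 listed fibroblast markers and all 4 contractile markers were under 1 TPM in both libraries. A difference in response could hardly pass for them there, so their count in 2iL says little about their response. The part of these markers in the differences of the interferon genes was not tested.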

How the results depend on the processing

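No gene of the list that passed changed direction under the alternatives run. With JQ1 in 2iL 17 genes passed, 11 with an added log2 fold limit of 1, and 10 to 15 with 1 library left out. For the difference of JQ1 responses in 2iL 6 passed, 3 with only the libraries compared and 2 to 8 with 1 library left out. For that in the knockout 5 passed, 8 with no low-count filter and 2 to 7 with 1 library left out. Other counts with 1 library left out were 22 to 25 of 28 (JQ1 in serum/LIF), 16 to 18 of 20 (JQ1 in the knockout), 31 to 32 of 33 (2iL) and 28 to 29 of 31 (knockout). Leaving out a library leaves 1 sample in its group, which is then assumed to vary like the others. With a replicate block, which no label supports beyond the shared number, 28, 17, 23, 33, 31, 7 and 7 genes passed, and no call was lost. Over all genes, the responses that differed in the knockout numbered 742, 1303 by DESeq2, 2011 with no low-count filter and 212 to 1779 with 1 library left out (1779 without serum/LIF JQ1 replicate 2, 212 without knockout JQ1 replicate 1). Those in 2iL numbered 706, 1478 with no low-count filter, 431 with only the libraries compared and 330 to 784 with 1 library left out (330 without 2iL JQ1 replicate 2). The share of all genes that changed with JQ1 was 10.9% to 15.8% in serum/LIF, 14.2% to 26.1% in 2iL and 17.9% to 22.4% in the knockout with 1 library left out. In 2iL against serum/LIF it was 43.4% to 47.2%, and in the knockout against unmodified cells 25.4% to 31.9%. Depth limits the genes near 0 outside serum/LIF, where a fold is only a bound or a counting ratio.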
